A study of Mus musculus with 34 samples.

Results

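Distal triply bound sites with strong HNF4α are places in the mouse liver genome, away from gene starts, where HDAC3, PROX1 and HNF4α were all found by chromatin immunoprecipitation and sequencing (ChIP-seq) and where the HNF4α peak was tall. They were chosen by position and by the HNF4α score, in steps. A site had to be listed with the same position in the HDAC3 and the PROX1 peak lists, which made it co-bound, and its centre had to lie more than 1 kb from every transcription start site (TSS) of a protein-coding gene in the mm9 assembly. At least 50% of its length had to be covered by a single HNF4α peak, which made it triply bound, and that peak had to carry a score of at least 66.9 in the authors' HNF4α list. There were 3524 such sites among 20039 co-bound sites, or 17.6%, and they made up 30.9% of the 11417 distal triply bound sites. The score selected the sites, so it is given here as a description and was not tested.

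The chromatin came from livers of male C57B/6 mice aged 10 weeks, collected at zeitgeber time (ZT) 10, that is 10 h after lights on. HDAC3 and PROX1 were precipitated from control livers, with 3 libraries each, and HNF4α from livers of HNF4A floxed mice, with 2 libraries. According to the methods, the floxed controls had received an adeno-associated virus that carries a green fluorescent protein gene behind the hepatocyte promoter TBG. Whether the deposited HNF4α list was also filtered on livers with Hnf4α deleted is not stated for that file. The replicates of each factor were pooled before peaks were called, so the lists hold no value per liver and no spread between livers can be given. The binding of HDAC3 and PROX1 and that of HNF4α therefore come from different mice. The peaks give no RNA level, so the tissue was not checked against expression of hepatocyte markers.

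HNF4α is a nuclear receptor that binds DNA as a homodimer, at a direct repeat of a short element with a single base between the copies, and it maintains the expression program of the hepatocyte. HDAC3 is a histone deacetylase that has no DNA-binding domain and reaches chromatin in a complex with nuclear receptor corepressors. PROX1 is a homeodomain protein of the developing and adult liver that can act as a corepressor.

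Members were compared with 3 other classes of distal sites. The weaker class held the remaining 7893 distal triply bound sites, with HNF4α scores from 20.3 to 66.4. The lacking class held 7037 distal co-bound sites on which no HNF4α peak covered 50% of the length or more. The last class, called HNF4α-alone, held 288 distal HNF4α peaks in the members' range of scores that touched no HDAC3 or PROX1 peak. Binding of HDAC3 or PROX1 too weak to enter the authors' lists was not examined. All tests were run over sites, which are not replicate livers, and the p-values therefore speak only of the difference in sequence or position between sets of sites. Confidence intervals (CI) are 95% and cover counting error only.

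The DNA of the strongest sites shows the range from an exact HNF4 element to none that met the limit of the search. The HNF4 consensus used here is a 13-letter form of the direct repeat, and a site was said to hold a match when some stretch on either strand differed from it at no more than 2 positions. A match describes the sequence and does not show that HNF4α touched it. The following 3 sites had the highest scores among members with an exact match, which is written in capitals. They were read 5′ to 3′ on the forward strand of mm9, and on the second and the third the match lies on the reverse strand.
Site upstream of Ddi2, chr4:141287831-141288030: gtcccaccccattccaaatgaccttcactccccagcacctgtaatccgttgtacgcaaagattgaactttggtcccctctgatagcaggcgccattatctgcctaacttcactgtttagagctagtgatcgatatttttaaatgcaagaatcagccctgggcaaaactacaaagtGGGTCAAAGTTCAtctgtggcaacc
Site upstream of Ctcfl, chr2:172949940-172950139: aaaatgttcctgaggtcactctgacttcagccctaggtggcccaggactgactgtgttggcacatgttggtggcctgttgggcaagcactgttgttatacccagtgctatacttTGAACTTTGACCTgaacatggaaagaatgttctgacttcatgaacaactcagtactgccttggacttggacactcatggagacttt
Site upstream of 1110057K04Rik, chr12:8212604-8212803: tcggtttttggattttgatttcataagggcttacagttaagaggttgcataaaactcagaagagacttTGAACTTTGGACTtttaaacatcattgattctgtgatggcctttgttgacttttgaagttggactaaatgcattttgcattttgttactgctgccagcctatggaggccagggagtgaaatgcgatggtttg
Their HNF4α scores were 127.7, 125.3 and 122.0, and all of them lay between genes, at -8.60, -5.01 and -2.21 kb from the nearest TSS. Read in the direction of the motif, the exact matches were GGGTCAAAGTTCA, AGGTCAAAGTTCA and AGTCCAAAGTTCA. All share the last 9 letters, CAAAGTTCA, and differ in the first copy of the repeat. The site near 1110057K04Rik had a GC content of 39%, below the first quartile of the members, 43%.

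The next sites are the highest-scoring members without a match at 2 mismatches. Capitals mark the best stretch, which differs from the consensus at 3 positions in both.
Site in the intron near Tchhl1, chr3:93273654-93273853: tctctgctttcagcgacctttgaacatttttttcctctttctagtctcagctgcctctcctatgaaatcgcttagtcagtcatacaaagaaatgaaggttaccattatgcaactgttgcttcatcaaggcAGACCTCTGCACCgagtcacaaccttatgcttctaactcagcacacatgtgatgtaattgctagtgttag
Site beyond Tomm20, chr8:129332490-129332689: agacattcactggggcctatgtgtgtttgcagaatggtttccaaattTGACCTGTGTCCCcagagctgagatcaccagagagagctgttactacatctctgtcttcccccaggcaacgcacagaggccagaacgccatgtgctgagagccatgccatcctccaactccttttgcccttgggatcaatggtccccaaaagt
Their scores, 139.5 and 139.0, were higher than those of the sites with an exact match. The site near Tchhl1 lies 1.08 kb past that gene's TSS, just outside the promoter limit of the rule, and its best stretch read in the direction of the motif was GGTGCAGAGGTCT. It held a match to the C/EBP consensus, GTTGCATAAT with 1 mismatch, on the reverse strand. The site whose nearest gene is Tomm20, a mitochondrial import receptor, lies 137 kb from that TSS and had the stretch GGGACACAGGTCA.

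Of the last pair, the first is the highest-scoring member that held both an HNF4 and a C/EBP match, and the second is the highest-scoring member upstream of G0s2, which encodes an inhibitor of triglyceride breakdown. Capitals mark the HNF4 match in both and, downstream of it in the first, the C/EBP match.
Site upstream of Actc1, chr2:113915756-113915955: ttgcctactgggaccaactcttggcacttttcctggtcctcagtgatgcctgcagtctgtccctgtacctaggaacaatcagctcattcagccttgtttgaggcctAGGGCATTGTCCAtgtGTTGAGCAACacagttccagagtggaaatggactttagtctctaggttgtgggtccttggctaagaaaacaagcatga
Site in the intron of Lamb3, upstream of G0s2, chr1:195137905-195138104: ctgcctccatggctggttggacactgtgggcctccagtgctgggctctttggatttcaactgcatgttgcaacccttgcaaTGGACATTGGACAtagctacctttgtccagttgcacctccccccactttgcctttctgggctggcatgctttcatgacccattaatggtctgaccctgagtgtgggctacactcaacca
In the site upstream of Actc1, with a score of 135.2, AGGGCATTGTCCA and GTTGAGCAAC stood on the same strand with their centres 14.5 bp apart. The G0s2 site scored 126.7, and its match, TGTCCAATGTCCA on the reverse strand, had 2 mismatches.

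Scores of the members ran from 66.9 to 160.2, with a median of 84.3 and quartiles of 74.9 and 97.5. For comparison, the scores of all 24253 HNF4α peaks ran from 20.3 to 160.2 with a median of 41.9. The limit cut through a continuous distribution. Just inside it, 59 distal triply bound sites scored 66.9 and 54 scored 67.4, and just outside it 63 scored 66.4 and 55 scored 66.0. Each member was covered by an HNF4α peak of its own, so 3524 distinct peaks stood behind them. These were 81.4% of the 4331 distal HNF4α peaks at or above the limit, whereas the HNF4α-alone peaks were 6.65% of them and the other 519 met neither definition. The centre of the HNF4α peak lay a median of 17 bp from the centre of the member and 84 bp at most, close to the median of 18 bp at weaker sites.

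The site with the highest score of all HNF4α peaks was a member. It lies at 90184743 to 90184942 on chromosome 1 (mm9), in an intron at -10.6 kb from the start of Hjurp, a chaperone of the centromeric histone, with a score of 160.2 and a consensus match with 1 mismatch, AGTTCAAAGTGCA. The second, at 146.5, lies 47.0 kb past the start of March5, a mitochondrial ubiquitin ligase. The other members among the 10 highest had scores from 137.6 to 140.4, and their nearest genes were Lman1, C4bp, Tns1, Tchhl1, Mocs1, Tomm20, Hsd17b2 and Aldh1a1. Of these 10 members, 7 held a consensus match, 5 lay in introns and 5 between genes. None of the nearest genes belongs to the lists of liver genes described further on, although C4bp encodes a plasma regulator of complement and Hsd17b2 and Aldh1a1 encode a steroid and a retinaldehyde dehydrogenase.

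Among co-bound sites, the HNF4 consensus was common at members and became rarer with every step down in HNF4α binding. It was present in 2079 of 3524 members, or 59.0% (95% Wilson CI 57.4 to 60.6), against 33.4% (CI 32.3 to 34.4) of weaker sites and 15.2% (CI 14.4 to 16.03) of sites lacking HNF4α. Over all co-bound sites the share was 31.2%, and in windows of the same length 2 kb to either side of the members it was 9.65% (CI 8.98 to 10.4). The difference to weaker sites was 25.6 percentage points (CI 23.7 to 27.5, Pearson's chi-square test over sites, adjusted p = 1.16e-144) and that to sites lacking HNF4α 43.8 points (CI 42.0 to 45.6, chi-square 2155). On each of 20 chromosomes the members were above both.

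Against HNF4α peaks in the same range of scores that touched no HDAC3 or PROX1 peak, the order was the opposite. The scores of these peaks were lower than the members', with a median of 75.9 against 84.3. HNF4α-alone peaks held the consensus in 206 of 288 windows, or 71.5% (CI 66.1 to 76.4), which left members 12.5 points lower (CI -17.7 to -6.83, Pearson's chi-square test, adjusted p = 7.51e-05), with the same direction on 16 of 20 chromosomes. Windows were centred on the co-bound site for members and on the HNF4α peak for the alone class. With both centred on the HNF4α peak the difference was -11.1 points. In windows of 100 bp, with members centred on the co-bound site again, it was -22.0. Matches within 50 bp were present in 45.2% of members around the site centre and in 52.4% around the HNF4α peak centre. Windows of 100 bp with the same centring were not compared. Distal HNF4α peaks with scores under the limit that touched no HDAC3 or PROX1 peak held the consensus in 59.9% of 5925 windows. That share was near the 59.0% of members and below the 71.5% of HNF4α-alone peaks at or above the limit. The difference between these sets of peaks was not tested.

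**Figure D1:**
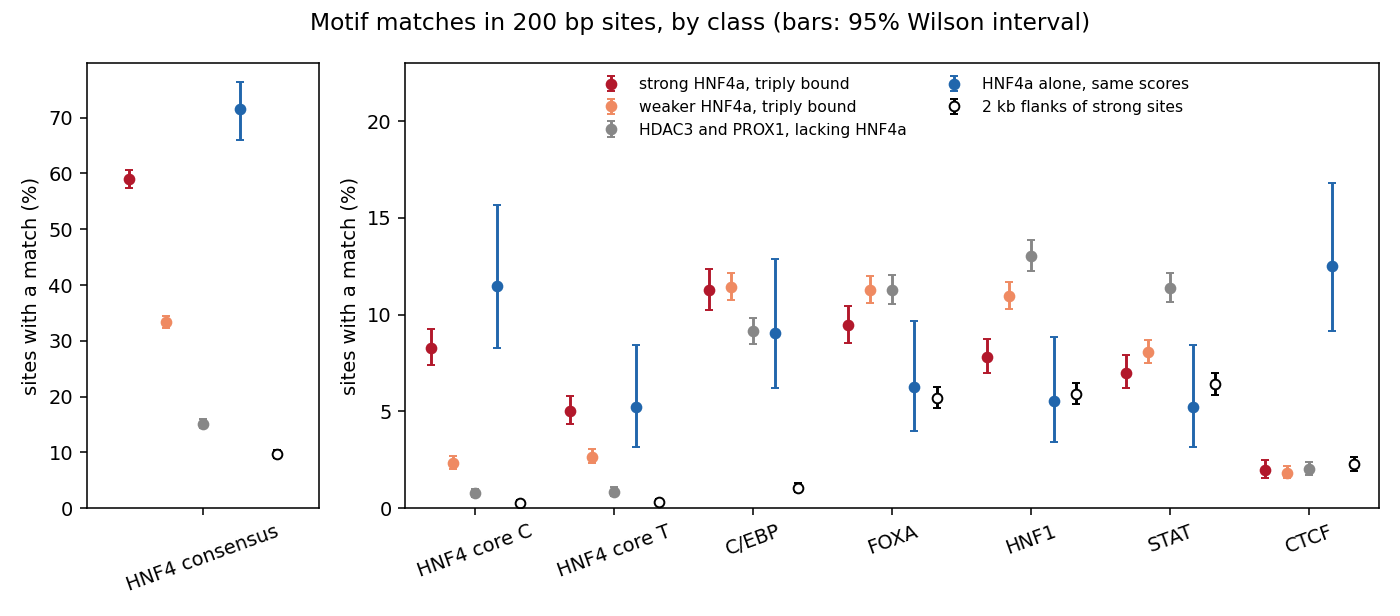
Share of 200 bp sites with a motif match (y axis, %), for 8 motifs (x axis) in 4 classes of distal sites and in windows 2 kb to either side of the strong sites. Points are shares and bars 95% Wilson intervals. The HNF4 consensus stands at 59.0% in the strong triply bound sites and 71.5% at HNF4α alone, and the CTCF motif at 1.96% and 12.5%.

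Members also carried better and more numerous matches than the other co-bound sites. An exact match was found in 67 members (1.90%), a best match with 1 mismatch in 588 (16.7%) and with 2 mismatches in 1424 (40.4%). The best stretch of a further 1224 (34.7%) had 3 mismatches, and that of 221 (6.27%) had 4 or more. At weaker sites the shares with 0 and 1 mismatch were 0.519% and 6.14%. At least 2 matches were present in 490 members, or 13.9%, against 5.25% of weaker sites and 1.71% of sites lacking HNF4α, and 69 members held 3 or more. HNF4α-alone peaks were above the members on most of these measures, with an exact match in 3.47%, a best match with 1 mismatch in 25.3% and at least 2 matches in 15.97% (46 of 288). With 3 or more matches they were below, at 1.39% against 1.96%. The shares by number of matches were not tested.

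Within the matches, the second copy of the repeat differed most between the classes. Among the best matches of 2079 members, 80.2% had T at position 10 of the motif and 52.8% had C at position 11, whereas among those of 2634 weaker sites 70.6% had T at position 10 and 38.9% had C at position 11. T at position 11 was present in 35.9% of the members' matches and in 52.5% of those of weaker sites. These shares describe the matches found and were not tested. The 9-letter core that ends the consensus was also searched for exactly, in the form CAAAGTCCA and in the form CAAAGTTCA. Both lie within the consensus and restate the base shares above in part, so their shares are given as descriptions.

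The core CAAAGTCCA was present in 292 members, or 8.29% (CI 7.42 to 9.24), in 2.32% of weaker sites and in 0.767% of sites lacking HNF4α, with 2.84% over all co-bound sites and 0.255% in the members' flanks. Members were above weaker sites by 5.97 points (CI 5.03 to 6.97) and above sites lacking HNF4α by 7.52 points (CI 6.62 to 8.49). For CAAAGTTCA the shares were 5.02% of members, 2.67% of weaker sites and 0.838% of sites lacking HNF4α, with 2.44% over all co-bound sites. Members were above weaker sites by 2.35 points (CI 1.58 to 3.19). Among sites of 43 to 50% GC alone the differences to weaker sites were 6.05 and 2.03 points. The HNF4α-alone peaks held CAAAGTCCA in 11.5% and CAAAGTTCA in 5.21% of windows, and the CIs of the differences, -7.46 to 0.1503 and -3.46 to 1.98 points, include 0.

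A search without any consensus arrived at the same letters. Every 8-letter word present in at least 1% of members was ranked by its excess over weaker sites on the even chromosomes, and the 10 highest were counted on the odd chromosomes and X, which had not been used to rank them. There the word with the largest excess, CAAAGTCC, was present in 13.2% of 1878 members, 4.80% of weaker sites and 1.35% of sites lacking HNF4α, counting both strands. AAAGTCCA followed with 12.6%, 4.37% and 1.64%. The other 8 words were present in 5.96 to 8.15% of members on these chromosomes and in 2.06 to 3.03% of weaker sites, and most of them overlap these letters on one strand or the other. No test was made of these words.

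No single spelling dominated. The best matches of the 2079 members took 1453 different forms. The most frequent forms, AGGTCAAAGGACA, AGTCCAAGGTCCA and GGGTCAAAGTTCA, were each the best match of 8 members, and of 8, 1 and 4 weaker sites.

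The matches were concentrated around the centre of the HNF4α peak, which is the midpoint of the listed interval. In 16.5% of members the centre of a consensus match lay within 10 bp of the centre of the HNF4α peak, in 36.1% within 25 bp and in 52.4% within 50 bp. At weaker sites these shares were 7.34%, 17.5% and 27.6%. C/EBP matches were centred as well, within 25 bp in 5.96% of members and in 6.02% of weaker sites. HNF1 matches within 25 bp were present in 1.65% of members and 2.83% of weaker sites.

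**Figure D2:**
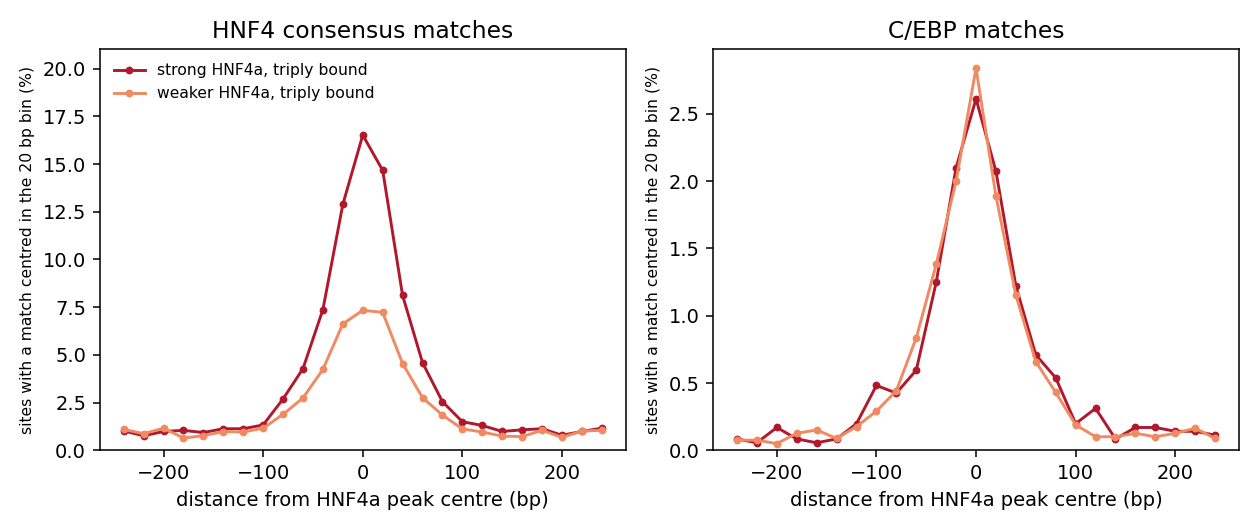
Position of matches around the centre of the HNF4α peak (x axis, bp) as the share of sites with a match centred in each 20 bp bin (y axis, %, scaled for each motif). HNF4 matches peak at the centre in both classes, higher in members (red) than in weaker sites (orange), and the C/EBP curves of the classes overlie each other.

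Among the members themselves the share with a consensus match rose with the score. In 5 equal groups of members from the lowest to the highest score it was 51.2%, 54.2%, 59.7%, 63.3% and 66.7%. CAAAGTCCA was present in 6.95% of the lowest and 10.8% of the highest of these groups. Over 10 equal groups of all distal triply bound sites, ordered by score, the consensus went from 19.97% to 65.6% and CAAAGTCCA from 0.438% to 10.7%, with no jump at the limit of the rule. HNF1 matches went the other way over the same groups, from 15.1% to 7.53%, and STAT matches from 10.2% to 6.83%. C/EBP matches showed no such course, with 9.89 to 13.1% in each of the 10 groups. GC content went from a mean of 44.7% in the lowest group to 47.1% in the highest. These courses are descriptions, and the part of GC content in them was not tested.

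**Figure D3:**
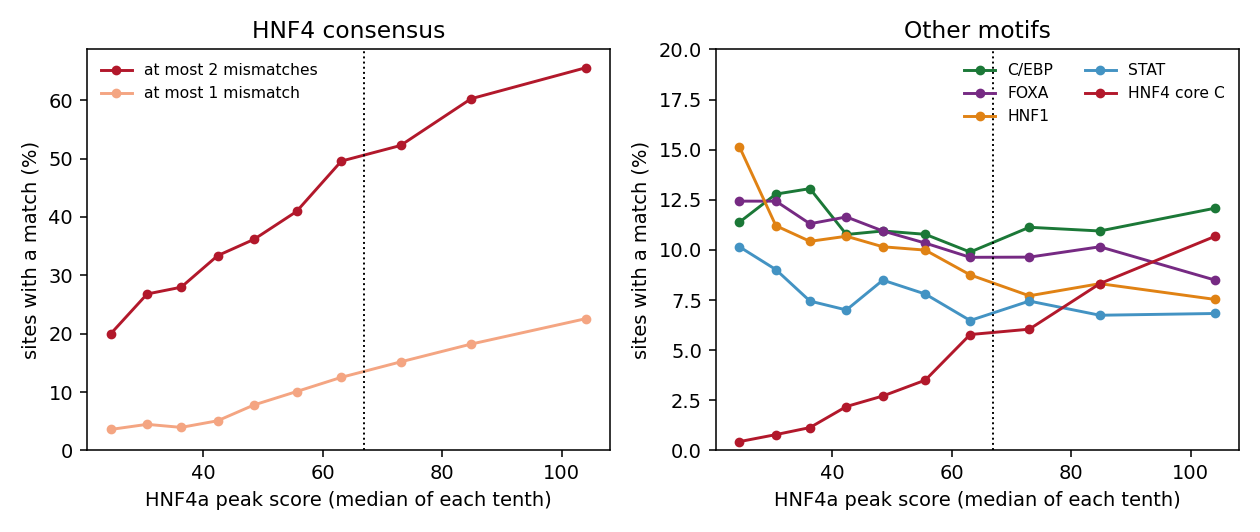
Share of distal triply bound sites with a motif match (y axis, %) in 10 equal groups by HNF4α score, plotted at each group's median score (x axis), with the limit of the rule as a dotted line. The HNF4 consensus climbs from 19.97% to 65.6% without a step at the limit, and HNF1 falls from 15.1% to 7.53%.

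Some further motifs differed in share between members and the sites lacking HNF4α. In all, 24 further motifs were searched on both strands in each class, and after adjustment 5 were more frequent in members than at sites lacking HNF4α and 7 less frequent. Against weaker sites the counts were 2 and 6, and against HNF4α-alone peaks 3 and 3. The 2 that were higher against weaker sites were the HNF4 cores, and the half-site, C/EBP and HNF6 joined them against sites lacking HNF4α. Those lower against weaker sites were HNF1, FOXA, DR2, the ROR element, the half-site and the cyclic AMP element CRE. Without adjustment, 11, 15 and 6 motifs had a p under 0.05 against weaker sites, sites lacking HNF4α and HNF4α-alone peaks. The 3 that were higher against HNF4α-alone peaks were LRH-1, the half-site and HNF6. The half-site was present in 35.4% of members and 27.4% of alone windows (chi-square adjusted p = 0.0214). HNF6 was present in 3.63% and 0.694% (chi-square adjusted p = 0.0248), a call that rests on 2 of 288 alone windows. Against HNF4α-alone peaks, CRE rests on 4 and 3 windows, with 0.529 expected in the smaller cell.

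HNF1, a homeodomain factor of hepatocytes, recognizes an AT-rich palindrome. Matches with at most 2 mismatches were present in 7.80% of members (CI 6.96 to 8.74), 11.0% of weaker sites and 13.03% of sites lacking HNF4α, and in 11.0% of all co-bound sites. Members were lower by 3.17 points than weaker sites (chi-square test, adjusted p = 1.66e-06) and by 5.23 points than sites lacking HNF4α (adjusted p = 1.72e-14). The flanks of members held it in 5.92% of windows. When only sites of 43 to 50% GC were compared, the difference to weaker sites was -1.44 points and no longer passed (chi-square adjusted p = 0.229), and that to sites lacking HNF4α was -3.71 points (adjusted p = 0.000606).

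The STAT element, TTCNNNGAA, bound by factors that respond to cytokines and growth hormone, was present in 7.01% of members (CI 6.21 to 7.90), near the 6.40% of their flanks. Sites lacking HNF4α held it in 11.4% and all co-bound sites in 9.08%. The difference of -4.39 points to sites lacking HNF4α passed the test (chi-square adjusted p = 1.41e-11), also among sites of 43 to 50% GC with -4.97 points. That to weaker sites, -1.06 points, did not (chi-square adjusted p = 0.112, CI -2.07 to 0.00180).

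C/EBP, a family of leucine zipper factors with roles in liver metabolism, did not differ detectably between members and weaker sites. A match with at most 1 mismatch was present in 11.3% of members (CI 10.3 to 12.4), 11.4% of weaker sites and 9.15% of sites lacking HNF4α, against 10.4% of all co-bound sites and 1.04% of the members' flanks. The difference to weaker sites was -0.162 points (CI -1.40 to 1.12, chi-square adjusted p = 0.874), and that to sites lacking HNF4α 2.11 points (adjusted p = 0.00283). With exact matches only, which 0.199% of members held, the latter turned to -0.0429 points (chi-square adjusted p = 0.757). Members without an HNF4 match held C/EBP matches in 14.9% and those with one in 8.71%. Both motifs were found in 181 members, or 5.14%, with a median distance of 40.5 bp between their centres and quartiles of 22.5 and 60.5 bp.

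FOXA, a pioneer factor of the liver lineage, had matches in 9.45% of members and in 11.3% of weaker sites, 11.3% of sites lacking HNF4α and 10.7% of all co-bound sites. The differences, -1.81 and -1.82 points, passed (chi-square adjusted p = 0.0151 and 0.0162) but neither did so among sites of 43 to 50% GC, with -1.70 and -1.77 points (adjusted p = 0.162 for both). HNF6, a cut homeodomain factor, had matches in 3.63% of members, 3.57% of weaker sites, 2.49% of sites lacking HNF4α and 3.05% of all co-bound sites. Members were 1.15 points above sites lacking HNF4α (chi-square adjusted p = 0.00398). In windows of 100 bp that difference was 0.664 points and did not pass (chi-square adjusted p = 0.0716).

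Elements of other nuclear receptors differed in direction. DR2 and the ROR element were rarer in members than in both co-bound classes, and neither DR4 nor IR1 nor the GR element passed against any class. The Rev-erbα element DR2, with at most 3 mismatches, was found in 31 members, or 0.880% (CI 0.620 to 1.25), near the 1.04% of the flanks, against 1.75% of weaker sites (chi-square adjusted p = 0.00208), 2.02% of sites lacking HNF4α (adjusted p = 0.000100) and 1.66% of all co-bound sites. With at most 2 mismatches neither DR2 difference passed (chi-square adjusted p = 0.426 and 0.330). The ROR element was present in 6.19% of members, 7.77% of weaker sites, 8.14% of sites lacking HNF4α and 7.51% of all co-bound sites. Its calls (chi-square adjusted p = 0.0113 and 0.00190) were both lost among sites of 43 to 50% GC (adjusted p = 0.413 and 0.108), and that against weaker sites also in 100 bp (adjusted p = 0.0921) and with 1 mismatch fewer (adjusted p = 0.469). The single half-site AGGTCA, which the DR2, ROR and LRH-1 elements contain and which also fits the first 6 letters of the HNF4 consensus, was present in 35.4% of members, 37.7% of weaker sites, 31.6% of sites lacking HNF4α, 34.6% of all co-bound sites and 13.1% of the flanks. The member share was 2.32 points below weaker sites at a chi-square adjusted p of 0.0497, a call that was lost with the Yates correction (adjusted p = 0.0526), and 3.77 points above sites lacking HNF4α (adjusted p = 0.000669). The latter call was lost among sites of 43 to 50% GC, with 1.58 points (chi-square adjusted p = 0.490), and at 75% coverage, with 1.83 points (adjusted p = 0.229). The LRH-1 element TCAAGGTCA with at most 1 mismatch was present in 16.6% of members, 17.2% of weaker sites, 14.9% of sites lacking HNF4α and 16.1% of all co-bound sites. Neither the difference to weaker nor that to lacking sites passed (chi-square adjusted p = 0.524 and 0.0533). That to the 10.4% of HNF4α-alone peaks did (chi-square adjusted p = 0.0212).

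CTCF separated members from HNF4α peaks that stood alone. CTCF is a zinc finger protein that organizes chromatin loops, and its core motif was present in 69 members, or 1.96% (CI 1.55 to 2.47), as in the 1.84% of weaker sites, the 2.02% of sites lacking HNF4α and the 1.96% of all co-bound sites. Of the HNF4α-alone peaks, 36 of 288 held it, or 12.5% (CI 9.17 to 16.8), against 3.30% of their own flanks. Members were lower by 10.5 points (chi-square test, adjusted p = 1.40e-24), in the same direction on 16 of 20 chromosomes. HNF4α-alone peaks with scores under the limit held the motif in 5.54% of 5925 windows. The GC box GGGCGG was present in 2.47% of members, 7.64% of HNF4α-alone peaks and 3.38% of all co-bound sites (chi-square adjusted p = 3.32e-06 for the difference to the alone class).

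Base composition also differed between the classes. More than 50% GC was found in 29.0% of members, 24.3% of weaker sites, 25.8% of sites lacking HNF4α and 57.3% of HNF4α-alone peaks (Pearson's chi-square test, adjusted p = 3.38e-07, 0.00137 and 6.92e-23 for the members against each). Among sites of 43 to 50% GC, of which 82 were HNF4α-alone, the CTCF difference was as large, at -14.1 points, the consensus difference was -15.4 points, and the GC box difference turned to 0.610 points.

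Members lay in introns and between genes at about equal counts. The counts were 1745 in introns (49.5%), 1673 between genes (47.5%) and 106 in exons (3.01%). The intron share was 51.0% at weaker sites, 51.6% at sites lacking HNF4α and 46.9% at HNF4α-alone peaks, and no difference passed the test (chi-square adjusted p = 0.190, 0.0539 and 0.388). The CIs of these differences were -3.44 to 0.533, -4.14 to -0.102 and -3.36 to 8.56 points. The distance to the nearest TSS had a median of 19.4 kb in members, 21.4 kb at weaker sites, 20.7 kb at sites lacking HNF4α and 15.6 kb at HNF4α-alone peaks. Members more than 50 kb from a TSS made up 25.9%, which was 1.96 points below weaker sites (chi-square adjusted p = 0.0446), and that call was lost without chromosome X (adjusted p = 0.0574).

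Members were found on all autosomes and on X. The autosomes had from 132 members, on chromosomes 16 and 18, to 262, on chromosome 4, and chromosome 19 had the most per length, 2.36 per Mb. Members made up 26.9 to 34.3% of the distal triply bound sites on each autosome. On X there were 8 members among 81 such sites, or 9.88%.

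Another co-bound site was centred within 2 kb of 1172 members, or 33.3%, against 30.3% of weaker sites and 36.4% of sites lacking HNF4α (chi-square adjusted p = 0.00304 for both differences). Within 10 kb the share was 69.9% for members, 65.2% for weaker and 66.8% for lacking sites, so that members were then above the lacking class by 3.13 points (chi-square adjusted p = 0.00194), the reverse of the order at 2 kb. Another member was centred within 2 kb of 8.80% of members and within 10 kb of 27.2%.

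The authors' HDAC3 and PROX1 lists give the co-bound sites in 3 unlabelled blocks separated by empty lines, and members belonged mostly to the first. It held 92.4% of members, 81.7% of weaker sites and 68.9% of sites lacking HNF4α, and the difference of 10.7 points between members and weaker sites passed the test (CI 9.44 to 11.9, Pearson's chi-square test, adjusted p = 1.01e-48). Among the members the share rose from 89.1% in the lowest to 96.7% in the highest of the 5 groups by score. The third block held 47 members, or 1.33%, and 15.7% of sites lacking HNF4α. The sources used here do not say what the blocks stand for.

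The genes nearest to members included many of the hepatocyte's own regulators and metabolic enzymes. Within 100 kb, 3083 members had a protein-coding gene, and these were 2147 genes, or 9.65% of 22238. Of these genes 1541 had 1 member, 398 had 2, 208 had 3 or more and 28 had at least 5. Weaker sites were nearest to 61.5% of the same 2147 genes, and from the other side 35.8% of the 3685 genes nearest to a weaker site had a member. Only 497, or 23.1%, were nearest to a member and to neither a weaker site nor one lacking HNF4α. The lists of genes below are described by counts and were not tested. A weaker site was nearest to 16.6% and a site lacking HNF4α to 15.6% of all genes, so the counts for those classes stand beside each list of hepatocyte functions.

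Rxra, which encodes the common dimer partner of many nuclear receptors, had the most members, 8. Their scores were 82.0, 93.8, 119.2, 82.0, 80.6 and 92.8 from -77.2 to -4.70 kb upstream of the TSS, and 72.1 and 93.3 in introns at 9.28 and 42.2 kb. A consensus match was present in 4 of them, and the gene had 1 weaker site and 1 site lacking HNF4α. Ppara, the receptor that drives fatty acid oxidation, had 7 members with scores from 68.3 to 106.0, spread from -52.6 to 35.3 kb of its TSS. Of these, 4 held a consensus match.

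Col27a1, a fibrillar collagen gene, had 6 members, all of them in introns, with scores from 73.5 to 126.7. Gabbr2, a subunit of the receptor for the transmitter GABA, had 5, all in introns from 3.44 to 97.6 kb past its TSS, and no weaker site and no site lacking HNF4α. The score was highest at 31.9 kb, with 132.9. The other genes among the 10 with most members, ties being ordered by highest score, were Minpp1, an inositol phosphate phosphatase (7), Arhgap26 (7), Gm10309 (7), Zmiz1, a coregulator of transcription (7), 4732465J04Rik (6) and Lamb3, a laminin chain (5), and consensus matches were present in 4, 5, 4, 5, 1 and 4 of their members. By nearest start, a high number of members was thus also assigned to genes whose products are better known outside the liver. At Lamb3, 4 of the 5 members are the sites upstream of G0s2 described further on. Which gene a member acts on was not tested.

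Hepatocyte transcription factors were nearest to members in 17 of 25 cases, or 68.0%, where the share over all genes was 9.65%. Weaker sites were nearest to 16 and sites lacking HNF4α to 17 of the same 25. Behind Rxra and Ppara came Prox1 itself, with 3 members of 106.5, 106.0 and 81.5, and Onecut1, which encodes HNF6, with 2. Hnf4a had 1 member, at 4.78 kb in an intron, with a score of 73.5. The 8 without a member included Foxa1 and the receptor genes Nr1h3 and Nr1i3. Of the HDAC3-NCoR complex, 3 of 6 had a member, among them Tbl1xr1 with 2 and the corepressor Ncor1 with 1, and Hdac3 had none. Weaker sites and sites lacking HNF4α were each nearest to 4 of these 6.

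**Figure D4:**
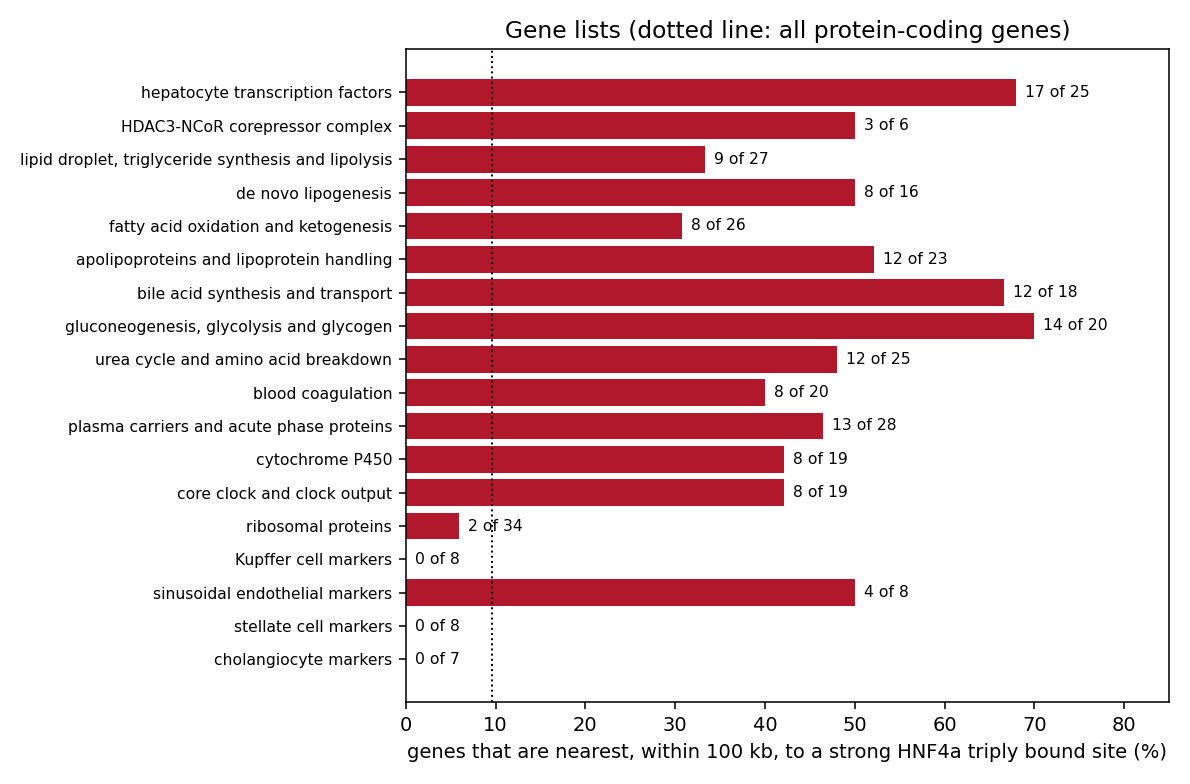
Share of the genes in each list that are the nearest protein-coding gene, within 100 kb, to a distal triply bound site with strong HNF4α (x axis, %), with the counts beside the bars and the share over all genes, 9.65%, as a dotted line. Hepatocyte lists lie between 30.8% and 70.0%, endothelial markers at 50%, and Kupffer, stellate cell and cholangiocyte markers at 0.

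Members were nearest to some genes of each lipid list. In de novo lipogenesis 8 of 16 genes had a member, against 13 with a weaker site and 11 with a site lacking HNF4α, with Elovl6, a fatty acid elongase, at 5, and Insig1, Mlxipl and Acly at 2 each. Insig1 restrains the processing of SREBP, Mlxipl encodes the glucose-sensing factor ChREBP and Acly makes cytosolic acetyl-CoA. In lipid droplet, triglyceride synthesis and lipolysis 9 of 27 had one, against 14 and 15, with 2 at Dgat2 and at Gpam, which catalyse the last and the first step of triglyceride synthesis, and 1 at Lpin2 and Mfsd2a. None of the lipolysis genes Pnpla2, Lipe, Mgll and Abhd5 had a member, and neither had Fasn or Srebf1. In fatty acid oxidation and ketogenesis the count was 8 of 26, against 16 and 12, with 4 members at Acaa2, a thiolase of mitochondrial β-oxidation, and 2 at Ehhadh, a bifunctional enzyme of the peroxisomal pathway. For apolipoproteins and lipoprotein handling it was 12 of 23, against 6 with a weaker site and 15 with a site lacking HNF4α, led by Apob and Scarb1, the receptor for high density lipoprotein, with 4 each, and by Apoc2 and Apoa5 with 2 each.

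Other functions of the hepatocyte followed. Bile acid synthesis and transport had 12 of 18 genes, against 10 in each of the other classes, with 4 members at the uptake transporter Slco1b2, 3 at the sterol transporter Abcg8 and 2 each at Akr1d1 and Cyp7a1, the rate-limiting enzyme of bile acid synthesis. Gluconeogenesis, glycolysis and glycogen had 14 of 20, against 10 with a weaker site and 12 with a site lacking HNF4α, led by the glucose transporter Slc2a2 with 3 and by Pcx, G6pc and Ldha with 2 each. In the urea cycle and amino acid breakdown 12 of 25 had a member, against 17 and 18, with 3 each at Bhmt, Ahcy and Slc25a13 and 2 at Gldc. Among plasma carriers and acute phase proteins the count was 13 of 28, against 19 and 12. Alb, for serum albumin, had 5 members upstream, from -46.5 to -10.7 kb, with scores of 95.6, 84.8, 83.4, 112.6 and 74.9, of which 3 held a consensus match. Gc, for the vitamin D carrier, had 4 with scores up to 130.0, and Trf and Saa1 had 3 each.

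Of 20 coagulation genes 8 had a member, against 6 with a weaker site and 11 with a site lacking HNF4α, with 3 at Plg, for plasminogen, and 2 each at Klkb1, Fga and F11. Of 19 cytochrome P450 genes 8 had one, against 10 in each of the other classes, with Cyp3a11 at 3, Cyp17a1 and Cyp2d10 at 2 and Cyp3a25 at 1. These genes lie in clusters. A wider window counted every gene with a member from 50 kb upstream of its TSS to 2 kb past its end. The number was then 14, or 73.7%, beside 14.4% of all genes. Core clock and output genes had members in 8 of 19 cases, against 11 and 13, with Hlf and Rora at 3 and Per2 and Npas2 at 2, and none at Arntl, Clock or Nr1d1.

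Lists outside the hepatocyte's specialised functions are small or lie near the share over all genes. Of 34 ribosomal protein genes 2, Rplp1 and Rpl11, had a member, or 5.88% beside 9.65% of all genes. By the wider gene window the count was 9, or 26.5%, beside 14.4% of all genes, so the list then lies on the other side of that share. Markers of Kupffer cells (0 of 8), of stellate cells (0 of 8) and of cholangiocytes (0 of 7) had none, and with so few genes that is near the share over all genes too. Markers of sinusoidal endothelium had one in 4 of 8 cases, Lyve1, Stab2, Oit3 and Cdh5, with scores of 83.9, 74.9, 70.7 and 68.8. Weaker sites were nearest to 3 and sites lacking HNF4α to 2 of the same 8. The sites at Stab2 and Cdh5 lay at 60.3 and -92.1 kb from the TSS. Within 50 kb the count was 2 of 8, or 25%, beside 8.56% of all genes. By the wider gene window it was 3 of 8, or 37.5%, beside 14.4% of all genes.

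At the lipid loci the study examined, members stood among weaker sites and sites lacking HNF4α. Upstream of G0s2, on the reverse strand of chromosome 1 (195098355 to 195099382), 4 members were centred at -43.0, -38.6, -17.0 and -16.1 kb, with scores of 77.3, 126.7, 124.9 and 93.3. The same window held 4 weaker sites, with scores from 25 to 60.8, and 1 site lacking HNF4α. The nearest start to these 4 members is that of Lamb3, and each had a consensus match with 2 mismatches. The 2 sites nearest to the start of G0s2, at -5.38 and -1.39 kb, scored 60.8 and 58.9 and so fell just short of the limit.

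Elovl6 had 3 members in its window, at -1.68, 32.6 and 59.5 kb, with scores of 85.8, 119.7 and 82.9. The strongest, in an intron, had the match AGAGCAAAGTCCA with 1 mismatch, a form that was the best match of 6 members and 1 weaker site. Mfsd2a, which encodes a lipid transporter, had members at -18.9 and -10.2 kb, with scores of 103.7 and 99.9. Gpd1, which makes glycerol 3-phosphate, had 1 member at 1.24 kb in an intron, with a score of 83.9. Cidec, a lipid droplet protein, had 1 at 7.52 kb, with a score of 74.0, centred in an exon. Agpat2, an acyltransferase of triglyceride synthesis, had none. A site in its intron scored 92.8 but lies within 1 kb of a TSS, and the distal triply bound sites in its window scored 49.0, 60.3 and 49.5.

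**Figure D5:**
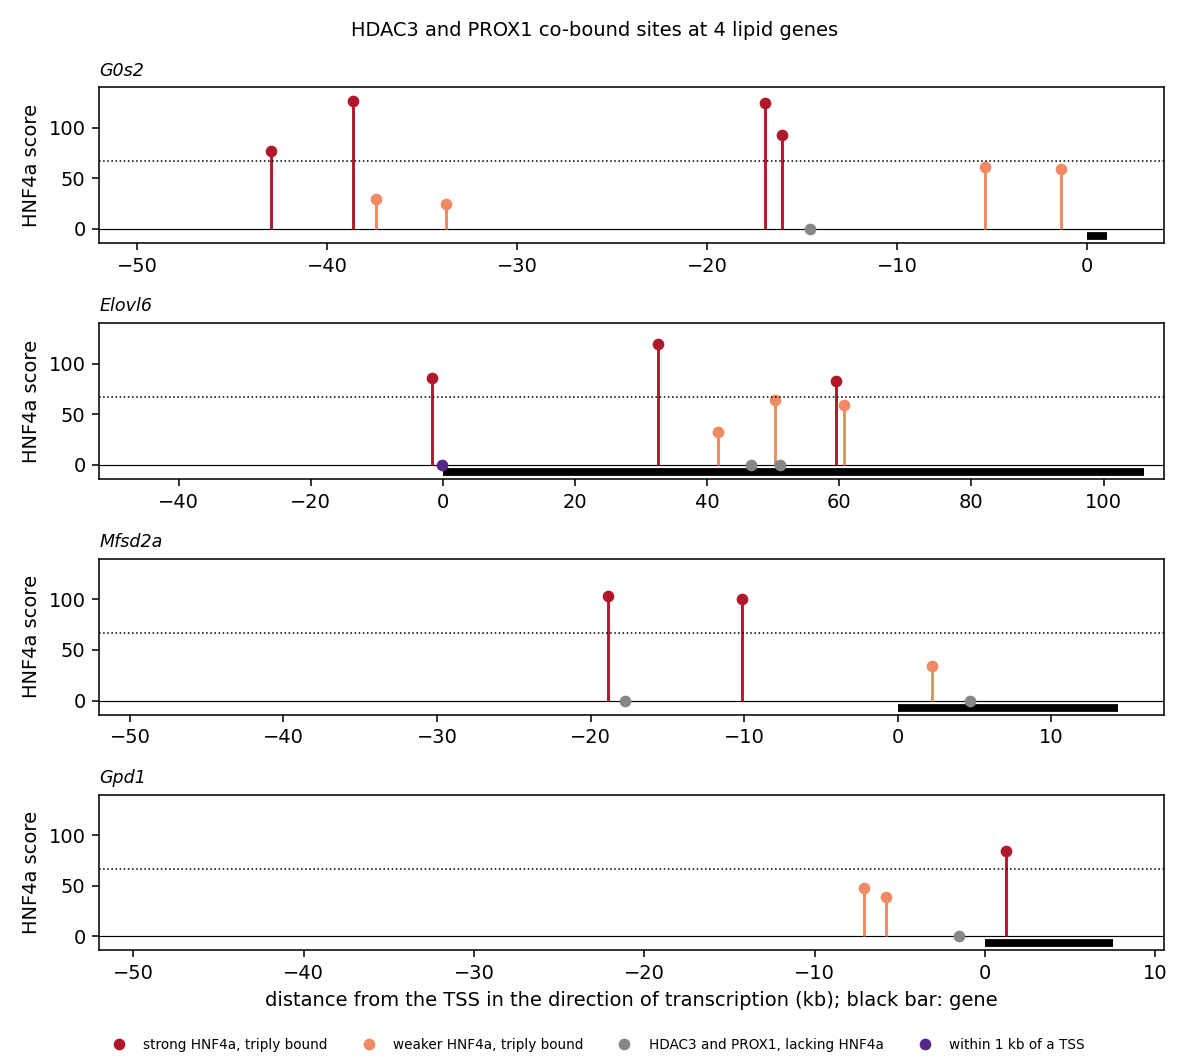
Co-bound sites at 4 lipid genes by distance from the TSS in the direction of transcription (x axis, kb), with the HNF4α score as height (y axis) and 0 where no HNF4α peak covered 50% of the site, and with the limit of the rule as a dotted line. G0s2 has 4 members upstream, between -43.0 and -16.1 kb, Elovl6 has 3, Mfsd2a 2 and Gpd1 1.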

How the data were processed

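Livers were analysed by ChIP-seq. Per the labels and methods, reads were mapped by the authors with Bowtie 0.12.7 on the mm9 assembly, duplicates removed, and they pooled replicates and called peaks with HOMER against IgG, keeping peaks of at least 3-fold enrichment. They deposited 3 peak lists, with positions and, for HNF4α, a score per peak whose unit the sources used here do not give. The lists hold no counts, so depth is unknown.

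Sites were annotated with GENCODE vM1 on NCBIM37, the same assembly, whose sequence gave the windows. 25 motifs were searched on both strands. Classes were compared by Pearson's chi-square test, two-sided, with Benjamini-Hochberg adjustment over 72 motif tests and 15 other tests. For differences, CIs are Newcombe's. Named were the 10 members of highest score, the 10 genes with most members, up to 4 genes per list and the loci the study examined. Members, lists and this rule were chosen with earlier results of these data known. The code was tested on simulated data. Alternatives changed the limits, windows and mismatches. Python 3.11.15, scipy 1.17.1, pandas 2.3.3 and pysam 0.24.0 were used. Expression, H3K27Ac and knockout libraries were not analysed here. Some genes of the lists are counted but not reported by name here.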

Additional observations from a re-analysis of the deposited data

How the results depend on the processing

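No paired analysis was possible because each list comes from pooled replicates and holds no value per library. The differences in the HNF4 consensus between members and each class kept direction and call under all 12 alternatives, from 11.9 to 27.02 points against weaker sites, 16.5 to 46.0 against sites lacking HNF4α and -22.0 to -3.84 against HNF4α-alone peaks. The alternative of sites with 43 to 50% GC was chosen after seeing the data. With 75% coverage required, the lacking class grows to 12348 sites by construction. The intron difference to weaker sites then turned to 0.0599 points, that to lacking sites passed at -2.58, and the GC difference to lacking sites (0.0107) and the neighbour differences (1.71 and -2.22) were lost. The far share against weaker sites was lost at a limit 10% higher (-2.05) or lower (-1.22), without X (-1.84) and at 43 to 50% GC (-1.11), where that against lacking sites turned to 0.312 and the neighbour difference to lacking sites was lost (-2.44). That difference was also lost with 1 site per cluster (-0.455) and turned to 3.13 at 10 kb. Over 55% GC, the difference to lacking sites was lost (0.815). Of other motifs, those lower against weaker sites numbered 6, and 3 at the higher limit, in 100 bp and with 1 mismatch fewer, and 1 at 43 to 50% GC. Against lacking sites 3 were higher at 43 to 50% GC, and 4 lower there and in 100 bp. Against HNF4α-alone peaks 1 was higher at the higher limit, 6 at the lower, 0 in 100 bp and 0 at 43 to 50% GC, and 5 were lower at the lower limit and 1 at 43 to 50% GC. C/EBP against lacking sites (-0.0429, exact matches) and the GC box against HNF4α-alone peaks (0.610) reversed. By the wider gene window, P450 genes numbered 14, ribosomal genes 9 and all genes 3193, and 1904 within 50 kb. The cause of these changes was not tested. Of 260 values for single motifs, 48 lost their call and 2 reversed. Depth is unknown, and only 288 HNF4α-alone peaks limit those comparisons.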
